A study of Mus musculus with 15 samples.

Results

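Cytosolic ribosomal protein genes were taken as the protein-coding genes of GENCODE M21 whose symbol is Rpl or Rps followed by a number and, in some, a short suffix. The rule found 80 of 21938 protein-coding genes on chromosomes 1 to 19, X and Y. Of these, 73 encode the canonical proteins of the ribosome, 43 of the large subunit and 30 of the small subunit, and 7 are paralogs of a canonical gene. The mark measured was trimethylation of histone H3 at lysine 4 (H3K4me3), which sits on nucleosomes around active and CpG-rich promoters. ChIP-seq was made from amygdala nuclei of adult male F1 generation 129xB6 mice (129S1/SvImJ fathers and C57BL/6J mothers) with the monoclonal antibody RM340, about 20000 nuclei per sample, after digestion with micrococcal nuclease and without crosslinking. The values here come from 2 WT mice, which carry intact Kmt2a and Kdm5c. The authors called their peaks as 1 list against the input, so no spread between animals can be given, and the Kmt2a-HET, Kdm5c-KO and DM samples were not analysed here. Every value describes a bulk tissue, in which fewer cells carrying the mark and less mark per cell cannot be told apart.

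Ribosomal proteins are made in about equal amounts in every cell, bind ribosomal RNA in the nucleolus and leave the nucleus as parts of the small and the large subunit. Their genes are short, lie scattered over the chromosomes and start transcription at a stretch of pyrimidines. In the mRNA this stretch forms the 5′ terminal oligopyrimidine (TOP) motif, through which the mTOR pathway sets their translation. In neurons, ribosomes are also carried into dendrites and axons, where proteins are made close to synapses.

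A pyrimidine run is the sequence feature that these genes are best known to share near the start. The longest run there is shown for the 5 canonical genes with the highest H3K4me3 scores and for those of chromosome X. It is also shown for 4 of the 5 with the lowest scores (that of Rpl17, the lowest, is not shown here). Each line gives 30 bases of GRCm38 (from RefSeq), 5′ to 3′ on the strand of the gene, and the capitals mark the longest run of C and T between 50 bp before and 100 bp after the start of the RefSeq Select transcript, the transcript that RefSeq chose to represent the gene.
Rpl11, chr4:136053357-136053386, minus strand: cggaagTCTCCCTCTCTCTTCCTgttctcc
Rpl27a, chr7:109519186-109519215, plus strand: gtgagCTCCTCCCTTTTCCCTTTCTgccac
Rps21, chr2:180257403-180257432, plus strand: gcacgagctaCTTCCTTTCTgcgctctcgc
Rps27, chr3:90213631-90213660, minus strand: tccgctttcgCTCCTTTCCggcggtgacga
Rps12, chr10:23787181-23787210, minus strand: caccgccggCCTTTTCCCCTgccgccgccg
Rpl13, chr8:123102324-123102353, plus strand: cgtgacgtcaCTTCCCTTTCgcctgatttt
Rpl36, chr17:56613403-56613432, plus strand: gcgcggtgccgTTCTTCCTgtcccggccgc
Rpl10, chrX:74270848-74270877, plus strand: tgggagcgTCTCTTTTCCTCTggcgcggtg
Rpl36a, chrX:134585673-134585702, plus strand: ggctctagCCTCTCTCTTTCCgagctgcta
Rpl39, chrX:37085165-37085194, minus strand: ggtcccggCCTTTCTCTTCTCCattcctcc
Rps4x, chrX:102189305-102189334, minus strand: agaaggcgagTCTCTTTCCgttcctagcgc
The runs began from -16 bp (Rpl13) to 67 bp (Rps4x) from the RefSeq Select start. A run shown therefore need not be the stretch at which transcription starts. The runs shown ranged from 8 bases at Rpl36 to 20 bases at Rpl27a. They did not sort with the H3K4me3 score, since Rps27, with 1 of the highest scores, had a run of 9 bases and Rpl10, with 1 of the lowest, had a run of 13 bases.

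For all 80 genes, the best summit was the peak summit with the highest score within 1 kb of any annotated transcription start site (TSS). The score was read as −log10 of the q-value against input, so it measures how firmly a peak was called and is not a density of the mark. The list held 24162 summits with a median score of 102.3, and 24139 of them lay on the chromosomes used. Among the markers listed for the tissue check, 10 of 10 neuronal, 5 of 5 astrocyte, 4 of 5 oligodendrocyte and 3 of 3 endothelial genes had a promoter summit. So did 1 of 7 genes of other tissues and 64.7% of all protein-coding genes. The check was uneven in score, with medians of 209.3 for neuronal, 121.9 for oligodendrocyte, 67.1 for astrocyte and 22.8 for endothelial genes. The summit at the gene of other tissues scored 229.8 and lay at -968 bp, near the edge of the window.

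All 73 canonical ribosomal protein genes had a promoter summit. Among all protein-coding genes, 14197 of 21938 had one, which is 64.7%. Most promoters of the canonical genes were CpG-rich, since 71 of 73 had an observed over expected CpG ratio of at least 0.6 in 500 bp either side of the start, and among all protein-coding genes at or above that ratio 95.6% (9938 of 10395) had a summit. The median ratio was 0.816 at canonical genes and 0.571 over all protein-coding genes. The exceptions were Rps4x at 0.506 and Rpl18 at 0.553, and both had a summit. The best summit of Rpl18 lay 2293 bp downstream of its main GENCODE start, so a ratio around that start does not describe the marked site. All 73 canonical genes had a best summit in the upper part of the list, split at its median, and 52% of all protein-coding genes did. No canonical gene was therefore among the weakly called promoters.

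The best scores of the canonical genes ranged from 165.2 to 297.9, with a median of 226.6 and quartiles of 198.4 and 247.6. The 14197 marked protein-coding genes ranged from 1.23 to 341.7, with a median of 194.6 and quartiles of 129.8 and 230.2. The canonical genes thus spanned a narrower range than marked genes as a whole, from the middle of the distribution to near its top. The median of all marked genes was reached by 60 of 73 and missed by 13, and 35.1% of marked genes lay below the lowest canonical score. The top 10% of marked genes, those at 254.4 or higher, held 13 of the 73, or 17.8%. Scores take few distinct values at this height, and 32 of the 73 shared their exact score with another canonical gene.

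**Figure D1:**
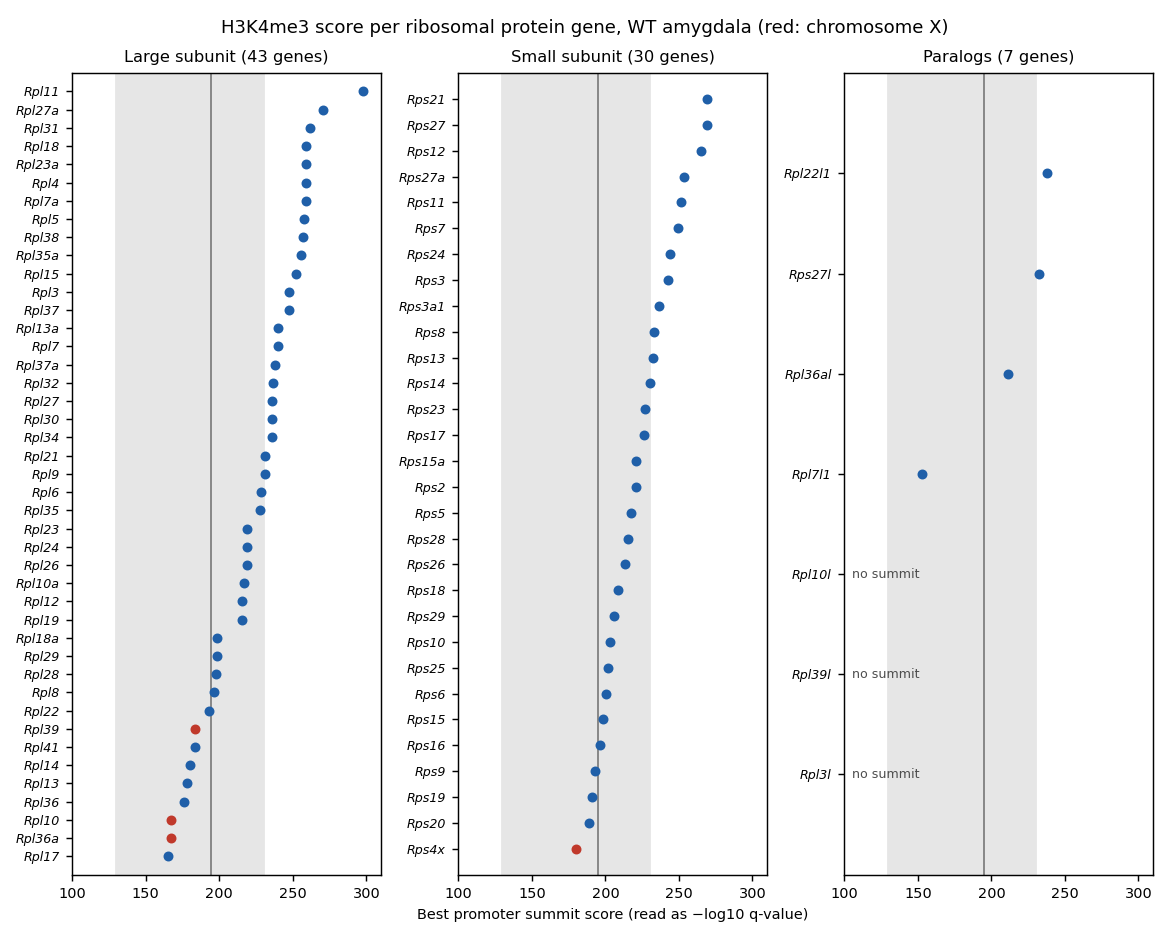
Best promoter summit score (horizontal axis, read as −log10 q-value) of each of the 80 genes, 1 point per gene, with the quartile range of all marked protein-coding genes in grey and their median as a line. The canonical genes run from 165.2 to 297.9, the 4 genes of chromosome X (red) lie at the low end, and 3 paralogs have no summit.

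Rpl11 had the highest score of the family, 297.9, with its summit 119 bp downstream of the nearest TSS, in the first intron. RPL11 binds 5S ribosomal RNA together with RPL5, and the pair outside the ribosome binds MDM2 and stabilizes p53. Rpl5 scored 257.4, so both genes of the 5S particle lay above the upper quartile of the family. Next after Rpl11 came Rpl27a at 270.7, Rps21 and Rps27 at 268.8 each, and Rps12 at 264.9. The gap between Rpl11 and Rpl27a was wider than that between any other neighbours in the order of scores.

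At the lower end, Rpl17 scored 165.2, Rpl10 and Rpl36a 167.0 each, Rpl36 176.3 and Rpl13 178.0. RPL10 joins the large subunit late, in the cytoplasm. The score of Rpl17 was still higher than that of 35.1% of marked protein-coding genes. The genes of proteins around the exit of the peptide tunnel, where the new chain leaves the large subunit, spread over most of the range. Rpl31 scored 261.7, Rpl4 and Rpl23a 259.1 each, Rpl35 227.5, Rpl26 219.0, Rpl19 215.3, Rpl39 183.5 and Rpl17 165.2. The median of these 8 was 223.3, close to that of the family, and the scores of this group had no common level.

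The subunits did not separate. Large subunit genes had a median of 231.0 (quartiles 198.0 and 249.9) and small subunit genes a median of 220.9 (202.4 and 240.9), and both ranges covered most of the scale of the family. The 12 genes listed for Diamond-Blackfan anaemia, an inherited failure of red cell production caused by loss of 1 copy of a ribosomal protein gene, had a median of 235.1 and ranged from 190.6 (Rps19) to 297.9 (Rpl11). Over the 73 genes, the score was weakly related to each of the numeric gene features listed next. Spearman's rho was 0.091 with the CpG ratio, 0.13 with gene length, 0.11 with the pyrimidine run and 0.18 with the number of annotated starts, given as a description because all points come from 1 list.

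The symbol rule leaves out 6 ribosomal protein genes that have other names, and all 6 had a promoter summit. Rplp0, Rplp1 and Rplp2 encode the proteins of the stalk that recruits translation factors, and they scored 207.7, 194.6 and 243.8. Rpsa, whose protein belongs to the small subunit and is also known as a laminin receptor, scored 215.3. Fau encodes a ribosomal protein fused to a ubiquitin-like protein, and scored 224.7. These scores lay within the range of the canonical genes.

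Genes that act with the ribosome, and other housekeeping genes, were also marked in nearly all cases. All 78 mitochondrial ribosomal protein genes had a summit, with a median score of 221.9, as did all 24 listed ribosome assembly genes with a median of 222.8. All 29 listed initiation factor genes were marked with a median of 207.7, and all 6 elongation factor genes with a median of 243.7. Nuclear genes of oxidative phosphorylation were marked in 78 of 83 with a median of 246.1. The canonical ribosomal protein genes were therefore within the spread of these lists, with a median above that of the initiation factors and below that of the oxidative phosphorylation genes, and with quartile ranges that overlapped in each case. Marked genes with a CpG ratio of at least 0.6 had a median of 205.9.

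**Figure D2:**
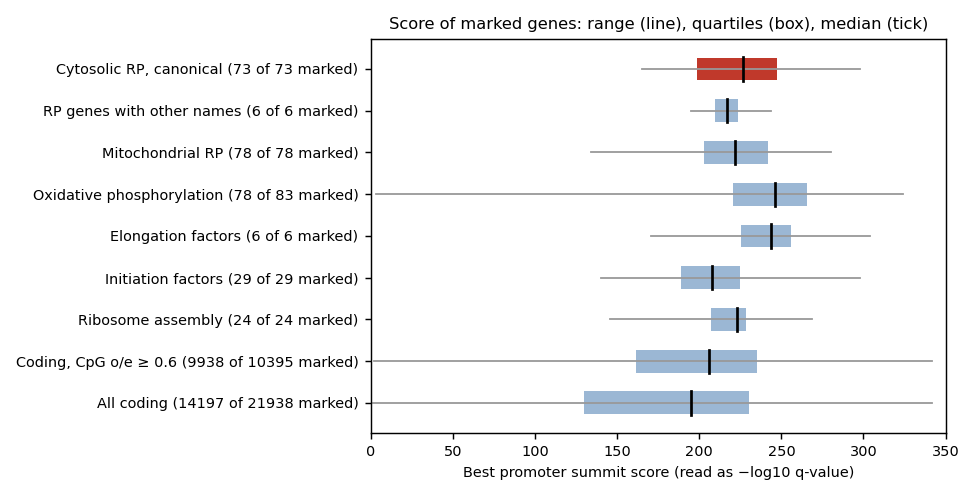
Best promoter summit score (read as −log10 q-value) of marked genes per list, with the range as a line, the quartiles as a box and the median as a tick, and the number of marked genes beside each name. The canonical genes (red) have a median of 226.6 against 194.6 over all marked protein-coding genes, and their lowest value is 165.2.

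Chromosome X carries 4 canonical genes, and all 4 were among the 10 lowest scores. Rpl10 and Rpl36a scored 167.0 each, Rps4x 179.8 and Rpl39 183.5. Their median was 173.4, against 228.5 for the 69 autosomal canonical genes, a ratio of 0.759. Only 5 autosomal canonical genes scored lower than Rpl39. The same held for chromosome X as a whole, where the 238 marked CpG-rich genes had a median of 168.8, while the medians of the autosomes lay between 194.7 and 213.2. The ratio of the median of X to that of the autosomes was 0.819 for CpG-rich genes and 0.832 for all marked genes. Rpl10 and Rpl36a lay just below the median of the CpG-rich genes of their chromosome, and Rps4x and Rpl39 above it. Male cells hold a single X, so each X-linked promoter is present in fewer copies than an autosomal one, and the part of copy number in these scores was not tested.

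**Figure D3:**
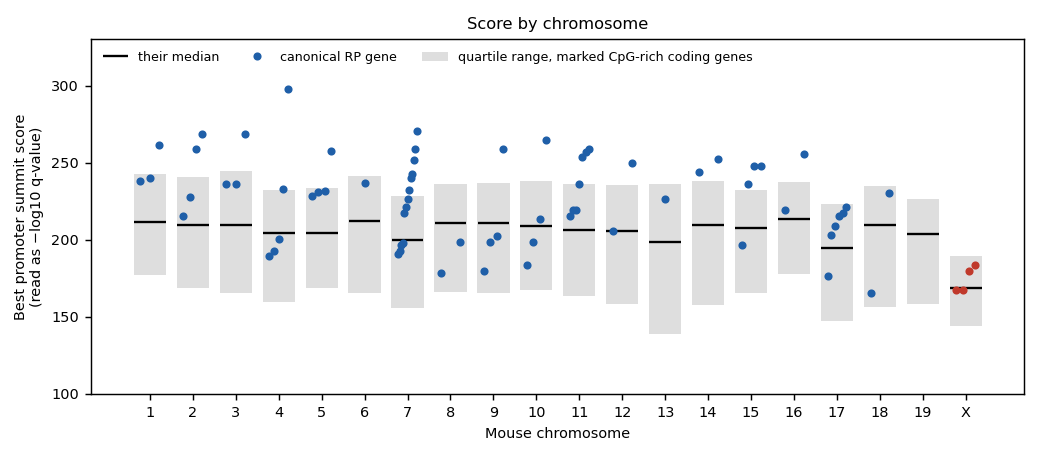
Best promoter summit score (vertical axis, read as −log10 q-value) by chromosome, with the quartile range (grey) and median (line) of marked CpG-rich protein-coding genes and 1 point per canonical ribosomal protein gene. Of the chromosomes drawn, X has the lowest median, 168.8, and its 4 canonical genes (red) lie between 167.0 and 183.5.

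A summit was found at 4 of 7 paralogs (57.1%, 95% Wilson interval 25% to 84.2%, counting error only), against 64.7% of protein-coding genes, so their share was near the background. Rpl22l1 scored 238.1, Rps27l 232.3, Rpl36al 211.5 and Rpl7l1 152.6. The 3 without a summit were Rpl10l, Rpl39l and Rpl3l. Rpl3l is known as a ribosomal protein of striated muscle, and Rpl10l and Rpl39l of male germ cells, tissues that were not in these samples.

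In 3 paralogs the coding sequence lies in 1 exon, as in genes copied from a spliced mRNA, and each of these has its parent on chromosome X. They are Rpl10l, Rpl39l and Rpl36al, with the parents Rpl10, Rpl39 and Rpl36a. The parents had 6, 3 and 5 coding exons and scores of 167.0, 183.5 and 167.0. Only 1 of the 3 copies, Rpl36al, was marked, and its score of 211.5 was higher than that of its parent. Its summit lay at -322 bp from the nearest start of Rpl36al and 248 bp from a start of Mgat2, a Golgi glycosyltransferase gene transcribed in the opposite direction from a start 74 bp away. The summit was therefore nearer to Mgat2, and a single list cannot divide the signal between these genes.

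Of the 4 paralogs with several coding exons, 3 were marked. Rpl22l1 scored higher than its parent Rpl22 (238.1 and 192.8). Rps27l, a target gene of p53, scored lower than Rps27 (232.3 and 268.8), and Rpl7l1 lower than Rpl7 (152.6 and 240.0). Rpl3l had no summit, while Rpl3 scored 247.6.

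The bases just before the start show how these pairs differ in CpG. Each line gives the 100 bases before the RefSeq Select start on GRCm38 (from RefSeq), 5′ to 3′ on the strand of the gene, with CpG in capitals, and each paralog follows its parent.
Rpl10, chrX:74270716-74270815, plus strand: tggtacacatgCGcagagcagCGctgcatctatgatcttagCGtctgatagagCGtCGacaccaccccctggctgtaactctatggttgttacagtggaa
Rpl10l, chr12:66284402-66284501, minus strand: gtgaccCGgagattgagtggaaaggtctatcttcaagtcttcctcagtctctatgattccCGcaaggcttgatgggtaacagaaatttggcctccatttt
Rpl39, chrX:37085223-37085322, minus strand: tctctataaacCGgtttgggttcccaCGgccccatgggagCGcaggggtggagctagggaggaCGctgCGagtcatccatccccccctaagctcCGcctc
Rpl39l, chr16:10170128-10170227, plus strand: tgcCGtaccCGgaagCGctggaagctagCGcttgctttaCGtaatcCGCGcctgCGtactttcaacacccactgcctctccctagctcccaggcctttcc
Rpl36a, chrX:134585554-134585653, plus strand: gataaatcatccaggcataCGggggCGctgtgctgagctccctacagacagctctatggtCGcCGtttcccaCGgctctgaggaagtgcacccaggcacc
Rpl36al, chr12:69184068-69184167, minus strand: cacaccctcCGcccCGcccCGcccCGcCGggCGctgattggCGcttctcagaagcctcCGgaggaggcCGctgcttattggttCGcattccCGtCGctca
Rpl3, chr15:80083407-80083506, minus strand: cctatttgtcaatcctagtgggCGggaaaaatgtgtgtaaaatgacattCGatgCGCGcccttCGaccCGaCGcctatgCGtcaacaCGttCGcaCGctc
Rpl3l, chr17:24727726-24727825, plus strand: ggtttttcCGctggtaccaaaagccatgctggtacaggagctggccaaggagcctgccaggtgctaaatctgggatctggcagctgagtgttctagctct
Rpl3l had 1 CpG in this stretch and Rpl3 had 11. Rpl36al had 12 and Rpl36a 5, and the stretch of Rpl36al spans the whole interval to the start of Mgat2. Rpl10l had 2 and Rpl10 had 5. Rpl39l, with no summit, had 8 and Rpl39 had 6, so a paralog without the mark was not always poorer in CpG just before its start. Over 500 bp either side of the start the CpG ratio was 0.172 at Rpl3l, 0.55 at Rpl39l, 0.722 at Rpl10l and 1.03 at Rpl36al. Of the unmarked paralogs, only Rpl10l thus reached the ratio of 0.6. The part of its window after the start lay within its single exon of 1023 bp. The ratio therefore does not describe the sequence before the start alone.

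Ribosomal proteins have many processed copies in the genome, and only uniquely mapped reads had been kept. Windows of 75 bases, the read length, were therefore compared with the whole genome, allowing 2 mismatches as in the alignment. Within 500 bp of the start, all windows were unique at Rpl39l and Rpl3l, and 66.8% were unique at Rpl10l. In the 500 bp before the start of Rpl10l, outside the copied sequence, 89.7% were unique. At the best summit, all windows were unique in 51 of 73 canonical genes, and the lowest value was 67.0% at Rps26, which scored 213.4. Spearman's rho between the score and the unique share at the summit was 0.19 over the 73 genes.

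The best summit lay downstream of the nearest TSS in 57 of 73 canonical genes, or 78.1%, against 79.2% of marked protein-coding genes. The median position was 176 bp downstream (quartiles 17 and 315), against 171 bp (49 and 327). Measured from the nearest of all annotated starts, the family therefore did not stand apart. Canonical genes have more annotated starts, however, with a median of 6 per gene against 3 over protein-coding genes and 5 over CpG-rich ones. In 69 of 73 canonical genes the distance changed when it was measured from the RefSeq Select start instead. From the RefSeq Select start, the median was 404 bp (277 and 516), against 260 bp (149 and 494) for the 13696 marked genes that have one. From 200 bp to under 700 bp downstream of it lay 60 of 73 canonical summits, or 82.2%. The share was 51.1% over all marked genes. The downstream position was not particular to the family, since the median from the RefSeq Select start was 437 bp for initiation factors and 383 bp for elongation factors. It was 279 bp for CpG-rich genes, 275 bp for oxidative phosphorylation, 216.5 bp for ribosome assembly and 208.5 bp for mitochondrial ribosomal protein genes.

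**Figure D4:**
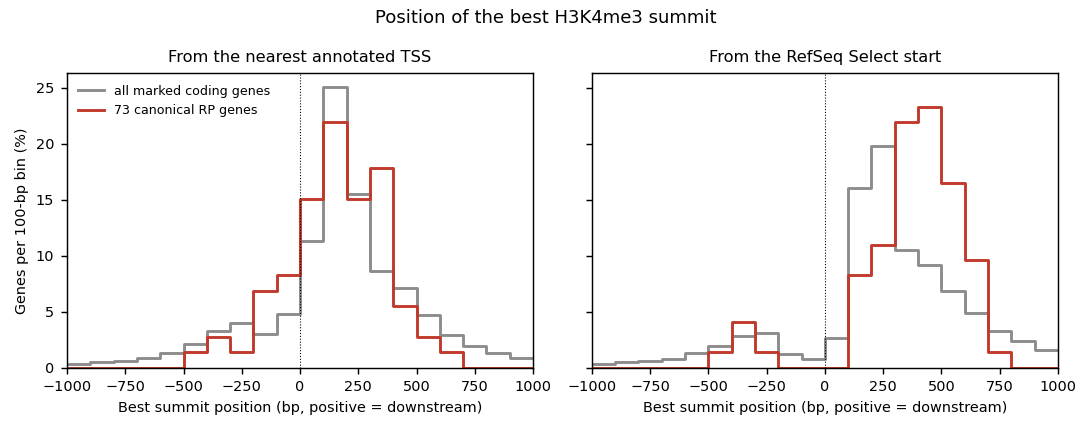
Position of the best summit in 100-bp bins (horizontal axis, positive is downstream) from the nearest annotated TSS (left) and from the RefSeq Select start (right), as percent of genes, for 73 canonical genes (red) and all marked protein-coding genes (grey). The curves overlap on the left, with medians of 176 and 171 bp, and the canonical genes lie further downstream on the right, with medians of 404 and 260 bp.

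First exons of canonical genes had a median of 93 bp, against 212 bp over protein-coding genes, and first introns of 383 bp against 2816 bp. The summit often lay past the first intron of these compact genes. It lay in intron 1 in 40 of 73 genes, in intron 2 in 16, in exon 2 in 7 and in exon 3 or beyond in 5. Among all marked genes, 2.3% had it in intron 2 and 24.3% in exon 1, where 1 canonical gene had it. The position was reached after a median of 11.2% of the gene length from the main GENCODE start, against 0.94% in all marked genes. The median length of a canonical gene was 3243 bp, against 17425 bp.

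The most downstream summits from the nearest TSS were those of Rpl39 (620 bp), Rps3a1 (566 bp) and Rpl34 (516 bp). The most upstream were those of Rps6 (-430 bp), Rps2 (-325 bp) and Rpl18 (-321 bp). RPS6 is the ribosomal protein whose phosphorylation is used as a readout of mTOR signalling, and RPS2 lies at the mRNA entry of the small subunit. Relative to the RefSeq Select start, 6 summits lay upstream, the others being those of Rpl35 (-339 bp), Rpl12 (-231 bp) and Rps14 (-26695 bp).

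Rps14 is the extreme of these because its best summit, with a score of 230.5, lay near a distant annotated start. That start was 230 bp away and a start of Ndst1 515 bp away, so this score cannot be assigned to Rps14 alone. A second summit with a score of 216.2 lay 719 bp downstream of its RefSeq Select start, so its main promoter was marked as well. Rps14 was 1 of 8 canonical genes with 2 or more promoter summits, or 11%, against 18.1% of marked protein-coding genes and 17.7% of marked CpG-rich ones. The others were Rpl3 (247.6 and 219.0), Rpl18 (259.1 and 211.5), Rpl13a (240.0 and 165.4), Rps24 (243.8 and 167.0), Rps3a1 (236.1 and 18.8), Rps29 (205.9 and 12.1) and Rpl10 with 3 (167.0, 74.8 and 4.45). The weaker summits of Rpl3, Rpl18 and Rps24 lay near other annotated starts, at -8611, -2997 and -4022 bp from the RefSeq Select start. Those of Rps3a1 and Rps29 lay upstream of the start, at -226 and -410 bp from the nearest TSS.

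The best summit lay within 1 kb of a start of another protein-coding gene in 15 canonical genes. In 3 of them it was nearer to the other gene. These were Rpl18, with Sphk2 152 bp away, Rpl35, with Arpc5l 122 bp away, and Rps10, where the other gene is RPS10-NUDT3, a read-through transcript that contains Rps10 itself. Divergent pairs, in which another coding gene starts within 1 kb on the other strand, were found at 11 of 73 canonical genes, or 15.1%, against 9.08% of protein-coding genes and 16.2% of those with a CpG ratio of at least 0.6. The share was therefore near that of CpG-rich genes. They were 10 to 304 bp apart, the closest being Rps28 and Ndufa7. The 11 had a median score of 252.1, and the other 62 a median of 223.7. In such pairs the score cannot be assigned to either gene alone.

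Small nucleolar RNAs guide the modification of ribosomal RNA, and many are cut out of introns of ribosomal protein genes. A snoRNA gene lay on the same strand inside 28 of 73 canonical genes, or 38.4%, against 1.27% of protein-coding genes and 1.95% of CpG-rich ones. Hosts had a median score of 234.6 (quartiles 211.0 and 248.6), and the 45 other canonical genes a median of 219.0 (198.4 and 240.0), so the ranges overlapped over most of their length. Rpl4, with 5 snoRNA genes, held the most and scored 259.1, while Rpl17 held 3 and had the lowest score.

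A run of at least 8 pyrimidines lay from 50 bp before to 100 bp after the main annotated start of GENCODE in 62 of 73 canonical genes, or 84.9%, against 46.9% of protein-coding genes and 40.6% of CpG-rich ones. The longest run had a median of 11 bases, against 7. The purine run on the same strand served as the comparison, and a run of at least 8 A and G was present in 26% of canonical genes and 48.7% of protein-coding genes. The annotated start matters here. Around the RefSeq Select start 68 of 73 canonical genes had such a run, and the run of Rpl39 was 14 bases there, as printed above, against 6 around the GENCODE start. The mitochondrial ribosomal protein genes, which are not TOP genes, had such a run around the GENCODE start in 34 of 78. The share differed between the other lists. The run was present in 6 of 6 elongation factor, 20 of 29 initiation factor, 8 of 24 ribosome assembly and 36 of 83 oxidative phosphorylation genes. It was also present in 6 of 7 paralogs and in 2 of the 6 ribosomal protein genes with other names.

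**Figure D5:**
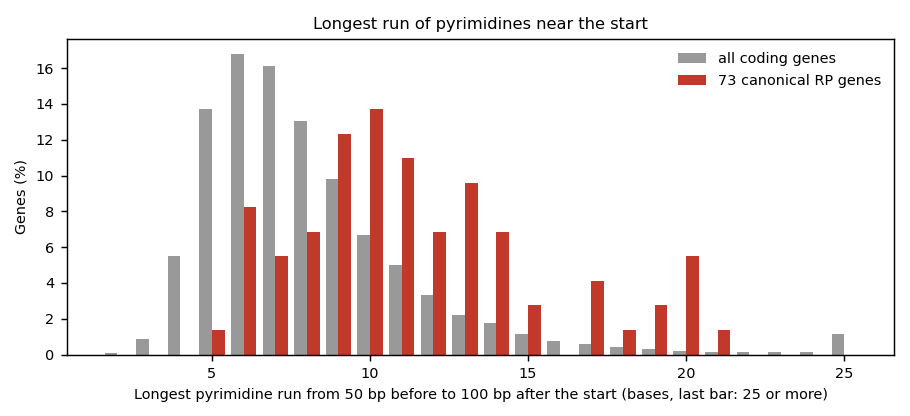
Longest run of pyrimidines (horizontal axis, bases) from 50 bp before to 100 bp after the main GENCODE start, as percent of genes, for 73 canonical genes (red) and all protein-coding genes (grey). The canonical genes have a median of 11 bases and all protein-coding genes of 7.

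Promoter motifs were counted from 250 bp before to 50 bp after the GENCODE start, on both strands. The TATA box sequence TATAAA was found in 11% of canonical genes and 12.6% of protein-coding genes. CCGGAAG, a core bound by ETS factors, was found in 28.8% and 11.2%, and AAGATGG, a core of the YY1 motif, in 13.7% and 6.35%. CCAAT was found in 28.8% and 38.6%, and the GC box GGGCGG in 50.7% and 45.3%. Set beside protein-coding genes with a CpG ratio of at least 0.6, the class of 71 of the 73, the comparison turned for TATAAA (6.09% of that class) and for GGGCGG (72.0%). In that class CCGGAAG was found in 18.9%, AAGATGG in 7.25% and CCAAT in 37.4%, so these kept their direction. CCGGAAG and AAGATGG can overlap by their shared AAG. A match describes the sequence and does not show binding.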

How the data were processed

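Native H3K4me3 ChIP-seq of 2 WT amygdala samples was analysed. The authors mapped reads with Bowtie to mm10, retained unique hits and used MACS2 (2.1.0.20140616) with input as control. They deposited 1 list of 1-bp summits for both mice, whose score was read as −log10 of the q-value. The list does not state read depth. The number of value columns without a sample or group was 0.

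Each gene was given its highest-scoring summit within 1 kb of any GENCODE M21 TSS, with Python 3.11.15, numpy 2.4.6, pandas 2.3.3, scipy 1.17.1 and numba 0.67.0, and matplotlib 3.10.9 for figures. Coordinates are 1-based on GRCm38. No summit lay beyond the end of its chromosome. Assignment and window matching were tested on simulated data. No p-value is given, because genes of 1 list are not replicates. Genes were named by a rule: members without a summit, paralogs, the 5 highest and 5 lowest scores, the 3 most upstream and downstream summits, X-linked genes, genes with several summits or a nearer neighbour, ribosomal protein genes with other names, and the 5S and tunnel exit groups. The values of 1 gene under this rule are not reported here. Other genes named were chosen after their values were seen. Members and lists were chosen with earlier results of these data known. Alternatives covered window, TSS set, score threshold and choice of summit.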

Additional observations from a re-analysis of the deposited data

How the results depend on the processing

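With 43 alternatives computed, 34 values stayed within the 95% interval of the reported one and 9 did not. All canonical genes kept a summit except under a 500 bp window (97.3%) and with the outermost TSS only (95.9%), and the median score stayed between 220.9 and 226.6. Position depended on which starts were used. The median distance was 455 bp with the outermost TSS, 293 bp with starts of protein-coding transcripts, 406 bp with the RefSeq Select start and 434 bp with the main GENCODE start, and the downstream share was 92.9%, 89.0%, 93.2% and 94.5%. Over all protein-coding genes the same settings gave 276, 204, 254 and 265 bp, and downstream shares of 84.8%, 81.2%, 85.1% and 84.6%, against 79.2% as reported. The share with a pyrimidine run was 93.2% around the RefSeq Select start. Both settings with a single start (RefSeq Select or main GENCODE) were chosen after seeing the data. The share of marked paralogs was 57.1% throughout. Intervals cover counting error only. No paired analysis was possible because both WT mice share 1 list and no result comes from a test, and leaving out a mouse was not possible for the same reason.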

Other observations

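Ribosomal protein pseudogenes were looked up in the same way as the genes. Of 300 annotated pseudogenes with a ribosomal protein symbol, 3 had a summit within 1 kb of their start. Rps4l, a transcribed processed copy of the X-linked Rps4x on chromosome 6, had a score of 162.6, and its summit lay beyond 1 kb of any protein-coding start. Rps4x itself scored 179.8. Rpl3-ps1 had a weak summit of 8.07, also away from protein-coding starts, and the summit near Rpl29-ps2 (259.1) lay within 1 kb of a protein-coding start. Uniqueness of the sequence at the 300 pseudogenes was not computed, and its part in the low count was not tested.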
